A study of Sus scrofa with 21 samples.

Results

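Translation initiation factors are described here in the whole blood of DD pigs and Large White (LW) pigs. Members were the gene names on the array that begin with EIF and a digit, as the scanner files spell them, with EIF1AY left out. The rule found 44 names with 94 probes among 48527 distinct features. Of these, 43 names were tested, because the single probe of EIF2C4 was among the dimmest 25% of probes and was removed. EIF2C1, EIF2C2 and EIF2C4 are older names of Argonaute genes, which act in small RNA silencing and are not initiation factors. They stayed in the count because the rule took them in.

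DD pigs are an inbred minipig line kept homozygous at the SLA locus, the pig major histocompatibility complex, and carry the SLAdd haplotype. LW pigs are a commercial breed and served as the controls. All animals were 60 days old and ate a standard diet without restriction. One-colour arrays with 60-base probes were read for 10 DD pigs from 5 litters and 11 LW pigs from 6 litters, each pig being 1 sample, and both breeds lay on each of 3 chips. The DD line is a single inbred herd, so line, breed size and haplotype cannot be told apart.

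In initiation, the small ribosomal subunit takes up EIF1, EIF1A, EIF3 and a complex of EIF2 with the initiator tRNA, while EIF4E, EIF4G and EIF4A bind the capped end of the mRNA and open it. The start codon is recognised, EIF5 and EIF5B act in GTP hydrolysis and in joining of the large subunit, and EIF2B recharges EIF2 with GTP. EIF2 kinases phosphorylate the alpha subunit of EIF2 under stress and so slow this recharging, and EIF4E-binding proteins hold EIF4E away from EIF4G until they are phosphorylated by mTOR signalling.

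The probes on which the results turn are printed 5′ to 3′ from the scanner files, which give no genome position for them. EIF2AK3 was read under both of its spellings by 60-base probes that shared no run of 20 bases, shown without capitals for that reason.
EIF2AK3: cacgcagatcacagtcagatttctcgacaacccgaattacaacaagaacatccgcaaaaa
eif2ak3: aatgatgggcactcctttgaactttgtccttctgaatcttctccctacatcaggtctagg
EIF3E had 15 probes, of which 11 shared 20 bases or more with another. The first 3 probes below have a common run of 38 bases in capitals, and the last sequence was printed on the array under 2 probe names, with all 60 bases in capitals.
EIF3E probe 1: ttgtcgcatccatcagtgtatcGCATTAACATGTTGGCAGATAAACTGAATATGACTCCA
EIF3E probe 2: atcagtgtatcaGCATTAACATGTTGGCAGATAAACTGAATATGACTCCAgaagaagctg
EIF3E probe 3: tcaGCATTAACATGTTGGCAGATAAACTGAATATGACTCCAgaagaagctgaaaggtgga
EIF3E repeated probe: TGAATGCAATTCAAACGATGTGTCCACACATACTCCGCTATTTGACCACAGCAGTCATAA
EIF1AX is shown by that of its 2 probes with the larger difference, EIF4EBP1 by the sequence that both of its probes share in full, and eif2B1 because it passed the threshold upward while the probes named EIF2B1 did not pass and differed in sign.
EIF1AX: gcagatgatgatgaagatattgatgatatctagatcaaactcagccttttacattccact
EIF4EBP1: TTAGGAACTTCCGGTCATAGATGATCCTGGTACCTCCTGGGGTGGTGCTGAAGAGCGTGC
eif2B1: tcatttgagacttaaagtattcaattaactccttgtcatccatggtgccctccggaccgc
As printed, the EIF4EBP1 and eif2B1 probes held a stop codon in each of the 3 reading frames, and their reverse complements had 1 frame without a stop. The EIF2AK3 probe had 3 such frames as printed and the eif2ak3 probe had 2. The strand of these probes, and of the others, was not tested. Where a probe has the strand opposite to its gene, its value may not be a level of that mRNA.

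Values are log2 intensities, and a log2 FC is the DD mean minus the LW mean fitted with chip as a fixed effect and sow as a random block. Over all 35578 features tested, 7459 passed a BH adjusted p of 0.05 in limma, 3406 lower and 4053 higher in DD pigs. The DD arrays were dimmer: the 75th percentile of the processed signal ran from 6.56 to 8.49 (median 7.64) in DD and from 7.37 to 8.62 (median 8.41) in LW on the log2 scale. Siblings were less alike than other pigs of a breed, with a consensus correlation of -0.11, so that the block lowered p-values: without it 14.4% of features passed. The share fell to 2.19% with array brightness as a covariate. Because brightness itself differed by breed, that fit may also remove breed differences, and brightness and breed cannot be fully told apart. Levels of different probes are not compared, and fewer cells of a type and less RNA per cell cannot be told apart in whole blood.

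Of the 43 names tested, 7 passed the threshold, which is 16.3% of them beside 21.0% of all features. EIF1AX, EIF1B, EIF2AK3, EIF2B4, EIF3E and EIF3J were lower in DD pigs, 14% of the names against a background of 9.57%. EIF4EBP2 was higher, against a background of 11.4%. The share called was therefore no larger than among all features, and is not a result about the factors. The log2 FC was below 0 for 35 of the 43 names (81.4%), beside 54.8% of all features, and its median was -0.18 beside -0.04. Once array brightness entered the fit, the names had a median of -0.02 and all features one of 0.01, 25 names were below 0, and EIF1B alone passed.

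**Figure D1:**
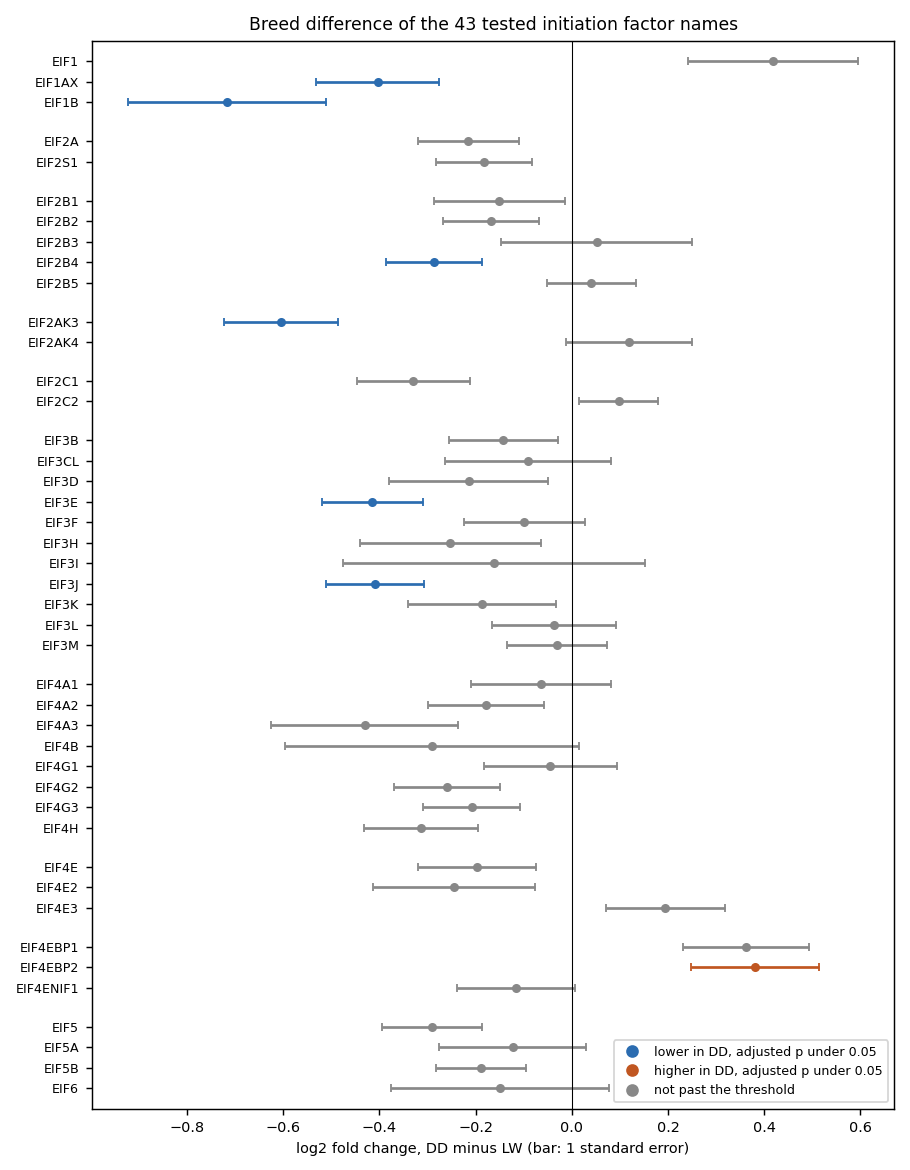
Log2 FC of DD minus LW (horizontal axis) for the 43 tested names, ordered by factor from EIF1 at the top to EIF6 at the bottom, with bars of 1 standard error and colours for the threshold of adjusted p 0.05. EIF1B (-0.72) and EIF2AK3 (-0.61) lie farthest to the left, and EIF1 (0.42), EIF4EBP2 (0.38) and EIF4EBP1 (0.36) farthest to the right.

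EIF2 carries the initiator tRNA and is the target of the EIF2 kinases. Of its 3 subunits, EIF2S1, the phosphorylated alpha subunit, was the single one under a member name. EIF2S1 ran from 9.89 to 10.77 (median 10.11) in DD and from 10.07 to 10.72 (median 10.45) in LW, and the groups overlapped. Its log2 FC was -0.18 ± 0.10 (SE, adjusted p = 0.191 in limma), with an interval from -0.38 to 0.01. A second EIF2S1 probe was well above background on 0 DD and 1 LW arrays and was removed as dim. EIF2A, which can bring initiator tRNA without GTP and is not a subunit of EIF2, gave -0.22 ± 0.11 (adjusted p = 0.142).

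EIF2AK3, known as PERK, is the EIF2 kinase of the endoplasmic reticulum that answers unfolded protein. Its level ran from 6.58 to 7.46 with a median of 6.93 in DD pigs, and from 6.96 to 8.13 with a median of 7.51 in LW pigs. DD pigs were low: 6 of 10 lay below every LW pig, and 6 of 11 LW pigs lay above every DD pig. The log2 FC was -0.61 ± 0.12, a 1.52-fold lower level (adjusted p = 0.00232 in limma), and the differences were -0.52, -0.62 and -0.69 on chips 1, 2 and 3. The separate probe spelled eif2ak3 gave -0.42 ± 0.13 (adjusted p = 0.0264), with -0.42, -0.41 and -0.44 on the 3 chips. EIF2AK3 lost its call with array brightness as a covariate, at -0.51 (adjusted p = 0.107), and without chip 2, at -0.60 (adjusted p = 0.0877).

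The other EIF2 kinases did not pass the threshold. EIF2AK4, known as GCN2 and activated by uncharged tRNA, was well above background on 1 DD and 0 LW arrays, so no fold is given. EIF2AK1, the heme-regulated kinase, had no probe under a member name. A probe spelled Eif2ak1 gave 0.43 ± 0.19 (adjusted p = 0.103) and a probe named by the RefSeq gene ID of EIF2AK1 gave -0.15 ± 0.16 (adjusted p = 0.515), so the direction differed between them. EIF2AK2, the kinase of double-stranded RNA and an interferon-stimulated gene, was read under its older name PKR, whose RefSeq accession ties it to EIF2AK2. PKR ran from 9.26 to 10.94 (median 9.69) in DD and from 8.98 to 9.98 (median 9.48) in LW, the highest DD value being that of pig DD_06. Its log2 FC was 0.33 ± 0.16 (adjusted p = 0.153) and 0.18 (adjusted p = 0.321) without DD_06. In the same fit with all pigs, 14 of 32 interferon-stimulated genes tested were higher (43.8%, beside 11.4% of all features) and 0 lower. Their mean level ran from 9.23 to 11.29 in DD and from 8.71 to 9.68 in LW.

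EIF2B is the exchange factor with 5 kinds of subunit, all present on the array. EIF2B4, its delta subunit, ran from 10.19 to 11.21 (median 10.66) in DD and from 10.47 to 11.34 (median 11.03) in LW. The groups overlapped, with 1 DD pig below every LW pig and 1 LW pig above every DD pig. EIF2B4 fell by 0.29 ± 0.10 on the log2 scale (adjusted p = 0.0461 in limma), with -0.21, -0.10 and -0.63 on the 3 chips, and it lost the threshold in 17 of 21 fits that each left out 1 pig and without the sow block (adjusted p = 0.0681). EIF2B2 gave -0.17 ± 0.10 and did not pass. EIF2B3 was well above background on 4 DD and 8 LW arrays and gave 0.05 ± 0.20.

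Probes of EIF2B1 and EIF2B5 differed in sign among themselves. The 3 probes named EIF2B1, the alpha subunit, gave -0.35 ± 0.24, -0.17 ± 0.10 and 0.07 ± 0.16. The eif2B1 probe printed above, of untested strand, gave 0.51 ± 0.16 (adjusted p = 0.0347). It had -0.09, 0.61 and 1.04 on chips 1, 2 and 3, and 0.02 once array brightness was a covariate. EIF2B5, the catalytic epsilon subunit, gave 0.04 ± 0.09 over 3 probes, 1 of which was well above background on 2 DD and 5 LW arrays. Its brightest probe had 0.08 ± 0.08, and a probe spelled Eif2b5 had -0.15 ± 0.28.

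EIF1 and EIF1A keep the scanning ribosome open until a start codon is met. EIF1B, a close relative of EIF1, showed the largest fitted difference among the names. Its level ran from 10.05 to 11.27 (median 10.49) in DD and from 10.04 to 12.12 (median 11.39) in LW. LW pigs were high, 8 of 11 lying above every DD pig, although 1 LW pig lay below every DD pig. EIF1B fell by 0.72 ± 0.21 on the log2 scale, 1.64-fold (adjusted p = 0.023 in limma), with -0.84, -0.56 and -0.80 on the 3 chips. The name that holds the RefSeq gene ID of EIF1B had 7 probes, 5 of which shared 30 to 45 bases with the EIF1B probe, and gave -0.72 ± 0.21 (adjusted p = 0.0236). EIF1B kept its call in each of the 21 fits that left out 1 pig. It lost it with scaling to the 75th percentile (adjusted p = 0.0538), without the chip term (0.058), without chip 2 (0.11), without chip 3 (0.236) and without pigs DD_06, DD_10 and DD_23 (0.0605).

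EIF1AX, an X-linked gene for EIF1A, ran from 7.56 to 8.68 (median 8.15) in DD and from 8.22 to 9.00 (median 8.54) in LW. In DD pigs 6 of 10 values lay below every LW pig. EIF1AX fell by 0.40 ± 0.13 (adjusted p = 0.0325 in limma), with -0.20, -0.32 and -0.75 on the 3 chips. A further probe, named by the RefSeq gene ID of EIF1AX, gave -0.48 ± 0.11 (adjusted p = 0.00993). EIF1AX lost the threshold in 9 of 21 fits that left out 1 pig and without the sow block (adjusted p = 0.0509), and without pigs DD_06, DD_10 and DD_23, described below, its log2 FC was -0.28 (adjusted p = 0.127). EIF1 itself went the other way, at 0.42 ± 0.18 with an interval from 0.07 to 0.76, and did not pass (adjusted p = 0.0901).

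**Figure D2:**
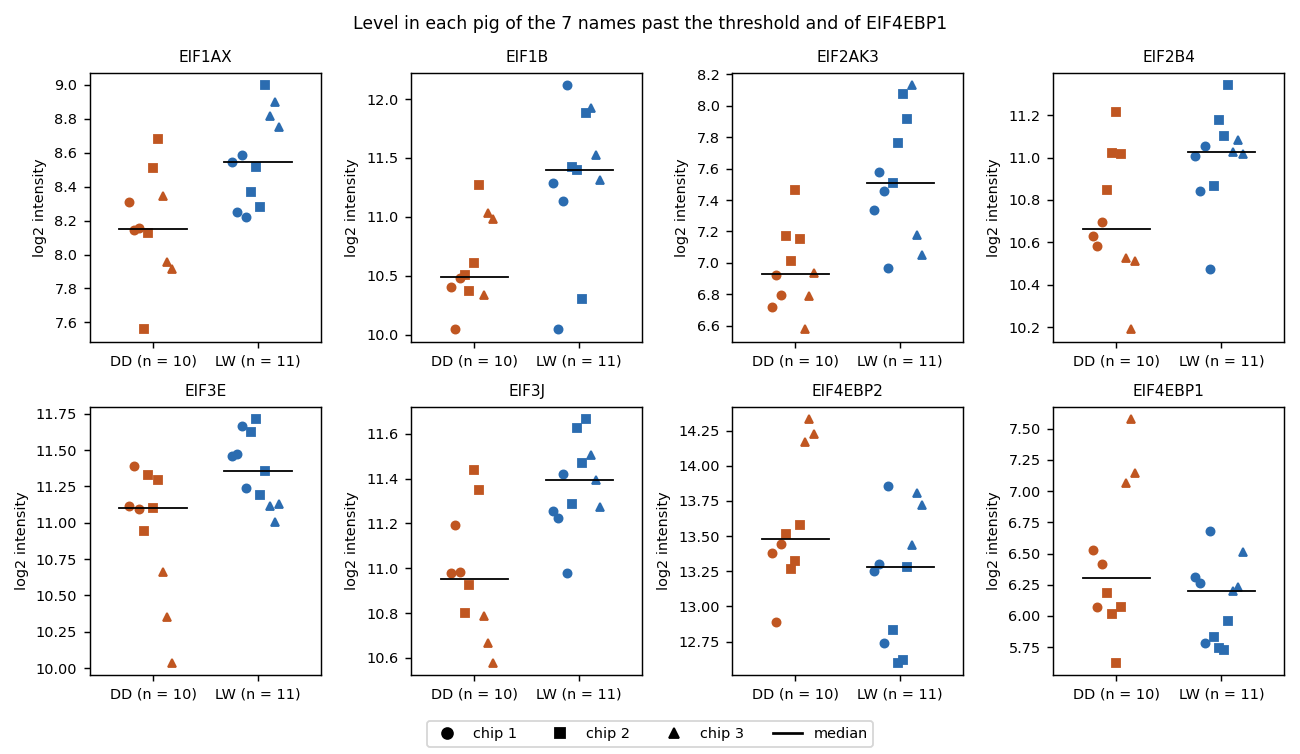
Log2 intensity (vertical axis, a separate range for each name) in every DD pig (n = 10) and LW pig (n = 11) for the 7 names past the threshold and EIF4EBP1, with the chip as the marker shape and the group median as a line. The groups overlap for every name, and the 3 DD pigs of chip 3 lie apart for EIF3E (low), EIF4EBP2 and EIF4EBP1 (high).

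EIF3 is the large scaffold on the small subunit. All 11 of its tested names had a log2 FC below 0, from -0.41 to -0.03, and 2 passed. The chips differed, with 9 names below 0 on chip 1, 11 on chip 2 and 5 on chip 3, where the median was 0.05. On chip 2 EIF3CL, EIF3H, EIF3I and EIF3K were lowest in pigs DD_13, DD_16 and LW_15, while EIF3E and EIF3J were not. EIF3K read 12.52, 12.33 and 12.95 in these pigs and from 13.55 to 13.67 in the others of chip 2. The part of these arrays in the chip 2 differences was not tested. On all 3 chips 3 of the 11 names were below 0 (27.3%, beside 24.9% of all features). EIF3E ran from 10.04 to 11.39 (median 11.10) in DD and from 11.01 to 11.72 (median 11.36) in LW, and 4 DD pigs lay below every LW pig. EIF3E fell by 0.41 ± 0.11, 1.33-fold (adjusted p = 0.0139 in limma), with -0.26, -0.31 and -0.74 on the 3 chips. Tested as single probes, of which 21.7% passed over the whole array, those of EIF3E ranged from -0.51 to -0.32, and the 3 overlapping probes printed above gave -0.38, -0.38 and -0.38. The repeated sequence gave -0.32 under the first probe name and -0.39 under the second, 15 probes thus being 8 separate stretches of sequence. An EIF3E probe also shared 20 bases or more with a probe named TPM2. The probe spelled Eif3e, identical to an EIF3E probe, gave -0.51 ± 0.13 (adjusted p = 0.0134).

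EIF3J, a loosely bound subunit, ran from 10.58 to 11.44 (median 10.95) in DD and from 10.98 to 11.67 (median 11.40) in LW. DD pigs were low, 5 of 10 below every LW pig, and 4 LW pigs lay above every DD pig. EIF3J fell by 0.41 ± 0.10, 1.33-fold (adjusted p = 0.0125 in limma), with -0.17, -0.39 and -0.71 on the 3 chips. EIF3E and EIF3J kept their calls in each fit that left out 1 pig, and both lost them without chip 2, without chip 3, and with array brightness as a covariate, where they stood at -0.21 (adjusted p = 0.536) and -0.23 (adjusted p = 0.49). EIF3E was also not called without the chip term (adjusted p = 0.0957), nor EIF3J with scaling to the 75th percentile (adjusted p = 0.0588). The other EIF3 names gave between -0.25 for EIF3H and -0.03 for EIF3M. A probe spelled eIF3h, of untested strand, gave 0.07 ± 0.14, and it averaged with the EIF3H probe gave -0.09. EIF3CL, whose probes may also read its near copy EIF3C, had 1 probe at -0.20 ± 0.34 and another at 0.02 ± 0.11, the second well above background on 1 DD and 7 LW arrays.

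EIF4A is the helicase of the cap complex, EIF4B and EIF4H help it, and EIF4G is the scaffold. All 8 of these names had a log2 FC below 0, from -0.43 to -0.04, and 0 passed in limma, while 3 of the 8 (37.5%) had an unadjusted p under 0.05, as had 36.7% of all features. EIF4A3, the helicase of the exon junction complex, gave the largest difference. It ran from 8.96 to 10.93 (median 10.22) in DD and from 9.22 to 11.16 (median 10.81) in LW, and the log2 FC was -0.43 ± 0.19 (adjusted p = 0.112). Its brighter probe alone gave -0.49 ± 0.12 and its dimmer probe -0.37 ± 0.37. Read by the brighter probe, EIF4A3 passed (adjusted p = 0.0083).

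EIF4A2 gave -0.18 ± 0.12 over 15 probes that covered 10 separate stretches, and every probe lay between -0.23 and -0.11. EIF4A1 probes differed in sign, from -0.31 ± 0.14 to 0.06 ± 0.13, and their strand was not tested. EIF4G1 had 1 probe at 0.07 ± 0.17 and another at -0.16 ± 0.16 that was well above background on 0 arrays. EIF4G2, a relative of EIF4G that does not bind EIF4E, gave -0.26 ± 0.11 (adjusted p = 0.0928), and a probe named by its RefSeq gene ID gave -0.40 ± 0.11 (adjusted p = 0.0218). EIF4H gave -0.31 ± 0.12 (adjusted p = 0.0614). EIF4E, which binds the cap, gave -0.20 ± 0.12, and its relatives EIF4E2 and EIF4E3 gave -0.24 ± 0.17 and 0.19 ± 0.12, none of them past the threshold.

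EIF4E-binding proteins hold EIF4E back. The EIF4EBP2 probe ran from 12.89 to 14.33 (median 13.48) in DD and from 12.60 to 13.85 (median 13.28) in LW. DD values were high in the 3 pigs of chip 3, which lay above every LW pig, and 4 LW pigs lay below every DD pig. Its log2 FC was 0.38 ± 0.13, 1.30-fold (adjusted p = 0.0453 in limma), with -0.05, 0.59 and 0.59 on the 3 chips. A name that holds the RefSeq gene ID of EIF4EBP2 had 2 probes that shared no run of 20 bases with it, and these gave the opposite direction. They ran from 7.29 to 8.41 (median 7.95) in DD and from 7.75 to 8.78 (median 8.34) in LW, with a log2 FC of -0.44 ± 0.12 (adjusted p = 0.0176). All probes of the gene averaged gave -0.17 (adjusted p = 0.202), so a direction for EIF4EBP2 depends on the probe. Without the sow block the EIF4EBP2 probe did not pass (adjusted p = 0.0698). It also lost the threshold with no filter on dim probes (0.0754), without the chip term (0.197), without chip 2 (0.391) and without chip 3 (0.436). With array brightness as a covariate this probe stood at 3e-04 (adjusted p = 0.9996 in limma).

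EIF4EBP1 ran from 5.62 to 7.58 (median 6.30) in DD and from 5.73 to 6.68 (median 6.20) in LW. The groups overlapped, and the 3 DD pigs above every LW pig were those of chip 3. Its log2 FC was 0.36 ± 0.13 and missed the threshold (adjusted p = 0.0521), with 0.08, 0.16 and 0.95 on the 3 chips. Its probes, identical in sequence and of untested strand, gave 0.51 ± 0.15 and 0.22 ± 0.13. With array brightness as a covariate EIF4EBP1 stood at -0.03 (adjusted p = 0.99). EIF4ENIF1, which carries EIF4E into the nucleus, gave -0.24 ± 0.12 by 1 probe and 0.01 ± 0.17 by another that was well above background on 2 DD and 6 LW arrays.

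**Figure D3:**
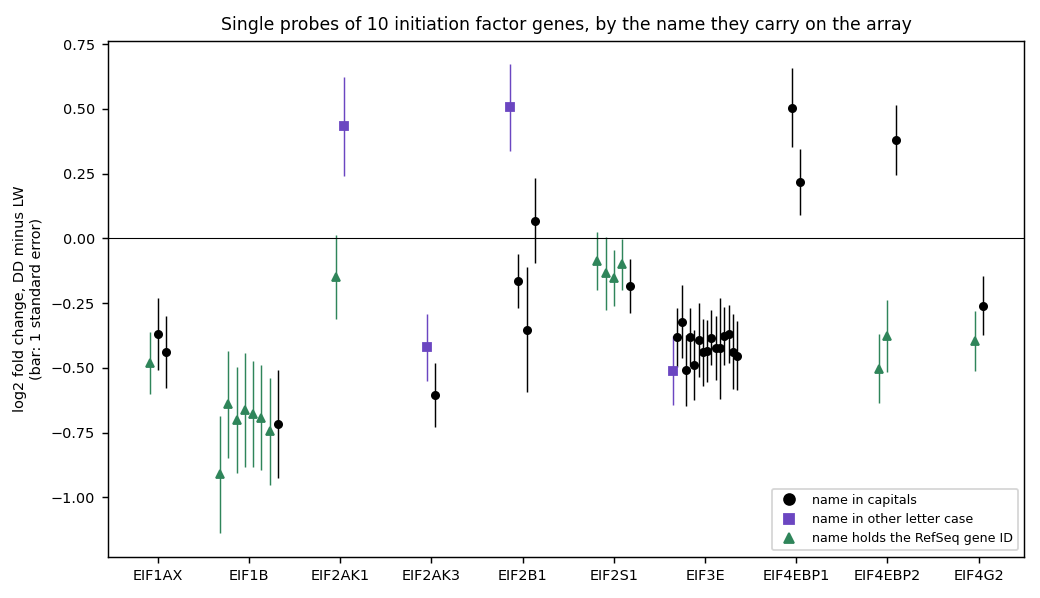
Log2 FC of DD minus LW with 1 standard error (vertical axis) for each kept probe of 10 initiation factor genes (horizontal axis), with marker and colour giving the kind of name on the array. Probes of EIF1AX, EIF1B, EIF2AK3 and EIF3E lie below 0 under each name, while those of EIF2AK1, EIF2B1 and EIF4EBP2 lie on both sides.

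EIF5, the GTPase-activating protein for EIF2, lay just outside the threshold, with values from 10.38 to 11.43 in DD and from 10.98 to 11.49 in LW and 6 DD pigs below every LW pig. Its log2 FC was -0.29 ± 0.10 (adjusted p = 0.0511 in limma). EIF5B, which joins the subunits, gave -0.19 ± 0.09, while a probe spelled Eif5b gave 0.14 ± 0.09. All probes of the gene averaged gave -0.02, so the sign read for EIF5B depends on the probe. The strand of the Eif5b probe was not tested, and this average may therefore mix a level of the mRNA with another signal. EIF6, which keeps the large subunit free, gave -0.15 ± 0.23. EIF5A, which helps elongation at difficult residues, had 1 probe at -0.32 ± 0.11 and another at 0.07 ± 0.26. The first, the brighter, passed when tested as a single probe (adjusted p = 0.0448 in limma), as did 21.7% of single probes on the whole array. The second was among the widely spread probes described below. Of the Argonaute names, EIF2C1 gave -0.33 ± 0.12 (adjusted p = 0.05002) and the 3 dim EIF2C2 probes gave -0.01 to 0.17. A probe spelled Eif2c4, where the member EIF2C4 was removed as dim, gave -0.61 ± 0.12 (adjusted p = 0.00251).

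Beyond the rule, 28 names on the array pointed to initiation factors, 20 by other letter case, 7 by a RefSeq gene ID and 1 by accession. Of these 26 were tested, 7 were lower and 1, the eif2B1 probe, was higher past the threshold, and 19 had a log2 FC below 0. Among all features 9.57% were lower, 11.4% were higher and 54.8% were below 0. Some of the 26 names read the same genes as members by overlapping or identical probes, so the counts are not independent. EIF3A, the largest EIF3 subunit, was read by 6 probes under its gene ID at -0.25 ± 0.10 (adjusted p = 0.0694) and by 1 probe spelled eif3a at -0.06 ± 0.25. Eif2s2, the beta subunit of EIF2, gave 0.20 ± 0.14 (adjusted p = 0.325). Joined by gene, 51 genes were tested and 8 passed (15.7%, beside 20.9% of all features), all lower, of which 6 were members already called. EIF2C4 and EIF4G2 came in and EIF4EBP2 dropped out.

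The probe spelled eif2s3, for the gamma subunit of EIF2, had separate levels. It read 9.71 in pig DD_06, 9.56 in DD_10 and 9.31 in DD_23, and from 3.71 to 4.53 in the other DD pigs and from 3.85 to 5.16 in LW pigs. The fitted log2 FC was 1.32 ± 0.69 (adjusted p = 0.171), and -0.29 without those 3 pigs. The UTY probe was also highest in these pigs, at 5.52, 5.40 and 5.17, beside 3.86 to 4.57 in the other DD pigs and 3.85 to 4.78 in LW pigs. The labels give no sex, and its part in these values was not tested. Without the 3 pigs 5 names were called: EIF1 was higher with EIF4EBP2, and EIF2AK3, EIF3E and EIF3J were lower.

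**Figure D4:**
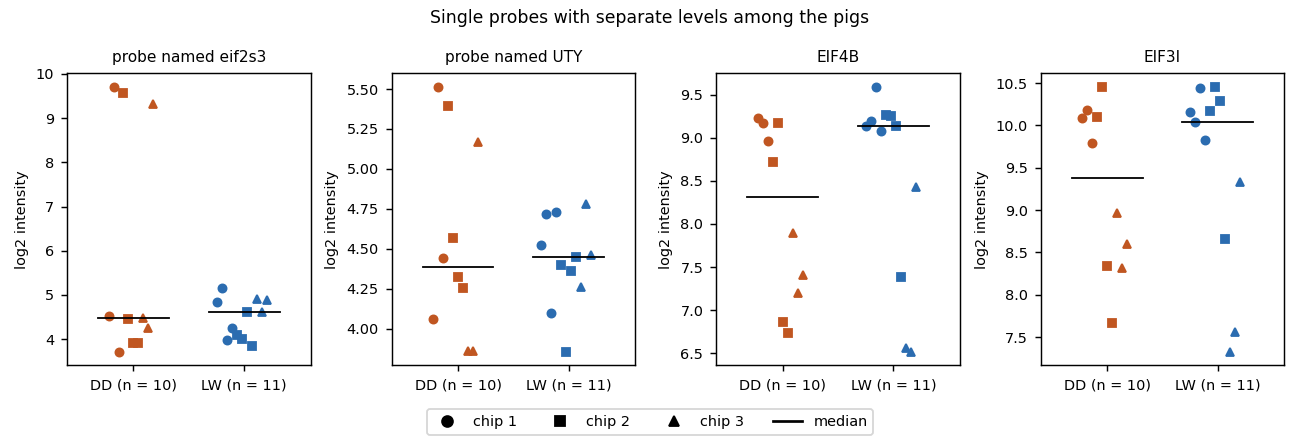
Log2 intensity (vertical axis, a separate range for each probe) in every DD pig (n = 10) and LW pig (n = 11) for the probes named eif2s3, UTY, EIF4B and EIF3I, with the chip as the marker shape and the group median as a line. In the eif2s3 panel 3 DD pigs sit between 9.31 and 9.71, above all others, and in the EIF4B and EIF3I panels the low values come from chips 2 and 3.

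Some probes spread widely among pigs of the same breed and chip. Of 92 kept member probes, 10 had a residual SD over 0.5 after breed and chip (10.9%, beside 23.9% of all kept probes). EIF4B ran from 8.96 to 9.23 in DD and from 9.08 to 9.59 in LW on chip 1, but from 7.20 to 7.90 in DD and from 6.51 to 8.43 in LW on chip 3. On chip 2 EIF4B spanned 6.74 to 9.17 in DD and 7.39 to 9.27 in LW. On chip 2 EIF4B was low in pigs DD_13, DD_16 and LW_15, at 6.86, 6.74 and 7.39, and ran from 8.72 to 9.27 in the others. EIF3I, EIF6, EIF4A3, EIF4E2, EIF5A, EIF4A1, EIF3CL and EIF2B1 each had a probe whose lowest values came from chips 2 and 3. The low pigs of chip 2 were again DD_13, DD_16 and LW_15 for each of these probes. The chip term does not take up a difference within a chip, and its cause was not tested. For EIF6 the probe ran from 6.99 to 9.84 in LW pigs of chip 3 and from 10.34 to 10.96 in those of chip 1.

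The chips differed in how far the breeds lay apart. The paper reports a technical bias of the third chip, found in its quality assessment and treated there as a chip effect. For the 43 names the median difference on chips 1, 2 and 3 was -0.05, -0.17 and -0.29, beside 0.00, -0.02 and -0.10 over all features. On chip 1, 31 names were below 0, on chip 2, 35, and on chip 3, 27. Across all 3 chips 18 names stayed below 0 (41.9%, beside 24.9% of all features), among them EIF1AX, EIF1B, EIF2AK3, EIF2B4, EIF3E and EIF3J.

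**Figure D5:**
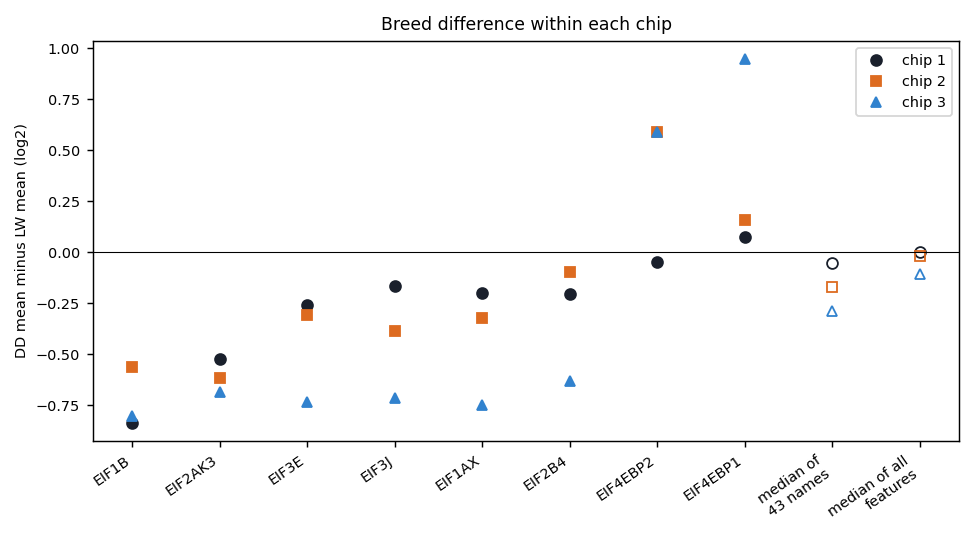
DD mean minus LW mean on the log2 scale (vertical axis) within each of the 3 chips for the 7 names past the threshold and EIF4EBP1, with open markers for the median of the 43 names and of all features. EIF2AK3 lies between -0.69 and -0.52 on every chip, while EIF4EBP2 is at -0.05 on chip 1 and 0.59 on chips 2 and 3.

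Other genes of translation were counted from fixed lists. Of 26 initiation partners and regulators tested, 4 were lower and 0 higher past the adjusted p threshold in limma (15.4%, beside 21.0% of all features). Their log2 FC was below 0 for 18 (69.2%, beside 54.8%), with a median of -0.14 beside -0.04. RPS6, the ribosomal protein phosphorylated downstream of mTOR, gave -0.51 ± 0.13. DHX29, a helicase of scanning, gave -0.43 ± 0.14, PABPC1, the poly(A)-binding protein, -0.31 ± 0.11, and GIGYF2, a partner of EIF4E2, -0.30 ± 0.09. Of 11 elongation and termination factors, 3 were lower and 2 higher (45.5%, beside 21.0% of all features). EEF2K, the kinase that inhibits EEF2, gave -0.57 ± 0.18, and the exchange factor subunits EEF1B2 and EEF1D gave -0.47 ± 0.12 and -0.41 ± 0.11. GSPT2, a release factor GTPase, and HBS1L, a ribosome rescue factor, were higher at 0.80 ± 0.17 and 0.52 ± 0.17.

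Of 15 target genes of the integrated stress response, the programme that follows EIF2 phosphorylation, 3 were lower and 1 was higher. The share called was 26.7%, beside 21.0% of all features. DDIT4, an inhibitor of mTOR signalling, ran from 7.70 to 8.79 (median 8.37) in DD and from 8.60 to 9.76 (median 9.28) in LW and gave -0.92 ± 0.14 (adjusted p = 0.000289 in limma). SLC7A11, a cystine transporter, gave -0.71 ± 0.19, XPOT, a tRNA exporter, -0.32 ± 0.11, and CEBPB, a transcription factor, 0.47 ± 0.12. The median over these 15 genes was -0.08.

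Markers of blood cell types are given beside the share of all features called, which was 21.0% (9.57% lower and 11.4% higher). All 14 T cell markers tested had a log2 FC below 0, beside 54.8% of all features. Of the 14, 5 passed (35.7%), namely CD8A, CD3G, CD247, CD3D and BCL11B, from -0.77 to -0.51. The mean level of the 14 ran from 7.68 to 9.13 in DD and from 7.97 to 9.21 in LW. Their median difference was -0.05, -0.60 and -0.63 on chips 1, 2 and 3. Of 17 erythroid genes 4 were higher (23.5%), EPB42, CA1 and CA2 among them, and 0 lower. The mean level of the 17 ran from 9.67 to 10.81 in DD and from 9.42 to 10.63 in LW. B cell markers had 0 of 8 past the threshold, with 0 at an unadjusted p under 0.05, beside 36.7% of all features. Monocyte markers had 2 of 11 lower (18.2%), granulocyte markers 1 of 10 higher (10%) and platelet markers 1 of 8 lower (12.5%). The part of these cell types in the values of the initiation factors was not tested.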

How the data were processed

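Total RNA from whole blood was labelled with Cy3 and hybridised to one-colour Agilent pig arrays. The authors extracted spot intensity with Agilent Feature Extraction 10.7.3.1, as the submitters' processing notes name it, and deposited those scanner files and a matrix of log2 values, corrected by normexp, quantile normalised, without control probes and not corrected for chip. The deposited log2 matrix was used here; the scanner intensity files gave names, probe sequences, signal above background (44.7 to 63.8% of probes) and alternative scalings.

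After removal of the dimmest 25% of probes by mean level, those of each name were averaged, and limma 3.58.1 in R 4.3.3 was fitted with chip fixed and sow as a random block, adjusted by Benjamini-Hochberg over all features. Litter and chip came from the study's description of the animals. Probes named gi, a cut-off identifier of 1498 unrelated probes, stayed separate features. RefSeq names came from assembly Sscrofa11.1. The fit was tested on simulated data.

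Named genes were those past the threshold, EIF2 subunits and kinases, EIF4E-binding proteins, the largest difference in each remaining group, dim members, members whose probes differed in sign, and up to 6 genes past the threshold from the other lists; any other member was named after its values were seen. An erythroid gene past the threshold is not reported here by name. The members and lists were chosen with earlier results of these data known. The number of arrays limits the precision. Alternative scalings, filters, covariates, chips and left-out pigs are given at the end.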

Additional observations from a re-analysis of the deposited data

Results flagged for a closer look

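Among the 43 names, each tested for an outlying pig in the DD group, 3 had a pig far from the others, where chance marks about 1 in 20 groups. The LW group of 11 was not tested. EIF3CL was low in pig DD_16, at 5.788 with the next DD value at 6.795. EIF4ENIF1 was low in pig DD_21, at 5.409 with the next at 6.255. EIF4G1 was high in pig DD_06, at 6.556 with the next at 5.826. None of these names passed the threshold.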

How the results depend on the processing

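No paired analysis of the breeds was possible because DD and LW pigs were separate animals from separate litters. Counts are given as lower and higher in DD. The initiation factors had 6 and 1 and all features 3406 and 4053. With normexp offset 50, a background filter in place of the mean filter, each name read by its brightest probe, or without chip 1, 2 factors were higher. With no filter on dim probes 0 factors were higher, 1 initiation partner was lower, and all features had 2235 and 2435. With scaling to the 75th percentile 2248 features were lower, the median of all features moved from -0.04 to 0.06, and that of the factors relative to it from -0.13 to -0.18, with partners at 1 and 2. Elongation factors had 1 higher and stress response genes 3 higher there. Offset 50 and the background filter gave 2 stress response genes higher, and the brightest probe 3.

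Without the sow block 2690 features, 0 factors and 1 elongation factor were higher and 2 partners lower. Without the chip term all features had 1279 and 650, factors 2 and 0, elongation factors 1 and 1, and 0 partners were lower. With array brightness as a covariate all features had 436 and 344, factors 1 and 0, stress response genes 1 and 0, and partners and elongation factors 0. There EIF4EBP1 was at -0.0301, EIF2S1 read under its gene ID at 0.0745 and Eif2ak1 at -0.10, each with the sign turned. Without chip 2 all features had 497 and 217 and factors 0 and 0; without chip 3 they had 477 and 342, and 1 and 0. Stress response genes had 1 and 0 in both, and partners and elongation factors 0.

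The following were chosen after seeing the data. Without DD_06, DD_10 and DD_23 factors had 3 and 2, partners 1 and 1, 0 stress response genes were higher, and eif2s3 turned to -0.29. All probes of each RefSeq gene averaged gave 0 factors higher, with EIF4EBP2 at -0.17. RefSeq names tested alone gave 985 and 852 features and 2 factors higher. Leaving out 1 pig gave 1961 to 4685 features lower and 1715 to 5375 higher, 4 to 10 factors lower (10 without LW_07) and 0 to 3 higher (3 without DD_06). Partners had 1 to 7 and 0 to 1, elongation factors 2 to 3 and 1 to 3, stress response genes 2 to 4 and 1 to 2. EIF4EBP2 lost the threshold in 16 of these 21 fits. The causes were not tested.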
